A study of Homo sapiens with 4 samples.

Results

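Chemotactic receptors of myeloid cells are a set of 10 genes for surface receptors that steer leukocytes: the chemokine receptors CCR1, CCR2, CXCR2, CXCR4 and CX3CR1, the anaphylatoxin receptors C3AR1 and C5AR1, and the formyl peptide receptors FPR1, FPR2 and FPR3. They were chosen by symbol. All 10 have a row among the 41084 Ensembl identifiers of the deposited gene tables, each symbol matching a single identifier. RNA of OCI-AML3, a human acute myeloid leukaemia line with monocytic features, was sequenced in 4 poly(A)-selected, stranded libraries. The genotype label was Plex CEBPB in 2 libraries, called CEBPB here, and Plex Control in the other 2, called Control. The gene CEBPB encodes the transcription factor C/EBPβ, which acts in monocytes and granulocytes and in inflammation. The sources used here explain neither the word Plex nor whether the groups are clones or pools, nor do they say that the 2 libraries of a group came from separate cultures. The p-values therefore measure only the spread between these libraries, which may be technical.

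These receptors span the membrane repeatedly and couple mostly to inhibitory G proteins of the Gi class, whose released beta-gamma subunits start the calcium, PI3-kinase and Rac signals that polarise a migrating cell. Receptor kinases of the GRK family and arrestins then switch the receptors off. In blood cells, CXCR4 retains cells in the marrow, CCR2 brings classical monocytes out of the marrow and into tissue, CX3CR1 marks patrolling monocytes, CXCR2 recruits neutrophils, and the C3a, C5a and formyl peptide receptors guide phagocytes over the last stretch to microbes and damaged tissue.

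Levels below are in TPM, a measure of transcript abundance corrected for transcript length and sequencing depth. Means carry the SD over the 2 libraries of a group. Total counts were 21950575 and 18151225 for CEBPB and 19882347 and 21598592 for Control. CEBPB itself stood at 536 and 339 TPM in the CEBPB libraries and at 4.72 and 4.47 TPM in Control. The gene named in the labels was thus higher in the libraries that bear its name, although the labels state no direction. Of 10 myeloid identity markers, CD33 was at 46.5 to 53.0 TPM in the 4 libraries, LYZ and SPI1 were above 100 TPM in each, and MPO, ANPEP, CD14 and ITGAM stayed under 6 TPM. Of 15 markers of lymphoid, erythroid, platelet and other cells, 4 were at 0 in all libraries. The summed level of the 15 was 41.2 and 43.6 TPM in CEBPB and 92.4 and 83.8 TPM in Control, most of it PECAM1, an adhesion gene that monocytes also express. The part of these marker differences in the receptor results was not tested. In total RNA of a culture, fewer cells expressing a gene and less of its RNA per cell cannot be told apart.

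In the CEBPB libraries receptors moved in both directions. C3AR1, FPR1, FPR2 and CCR1 rose, by 22.5-fold, 17.4-fold, 7.11-fold and 2.11-fold. CX3CR1, CCR2, CXCR2 and CXCR4 fell, and Control stood above CEBPB by 19.5-fold, 11.6-fold, 4.09-fold and 3.43-fold. C5AR1 did not pass the test and FPR3 had no counts. Thus 8 of the 9 receptors with enough counts to test were past an adjusted p of 0.05 (edgeR's quasi-likelihood test, Benjamini-Hochberg over all 13698 features tested), against 48.5% of all features tested, 23.7% being higher and 24.7% lower. Past that threshold with a change of at least 2 on the log2 scale were 6 of the 9, against 5.37% of the features tested. Past it with a change of at least 4 were C3AR1, FPR1 and CX3CR1, against 1.40%. These counts by size are those of this fit. Under some alternatives FPR2, CXCR2 and CX3CR1 changed by less than 2, and FPR1 by less than 4. The same 4 rose and the same 4 fell in the test against a change of 1.5-fold, which 17.3% of features passed, 8.66% higher and 8.67% lower. The TPM of the groups did not overlap for any of the 9, as held for 77.4% of features tested. The median log2 fold change was 1.07 over the 9 receptors, which is the value of CCR1, and 0.00092 over all features tested. As 4 receptors rose and 4 fell, this median describes no shared shift of the set. The receptors were chosen with earlier results of these data known, so these shares describe the set and do not test it.

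**Figure D1:**
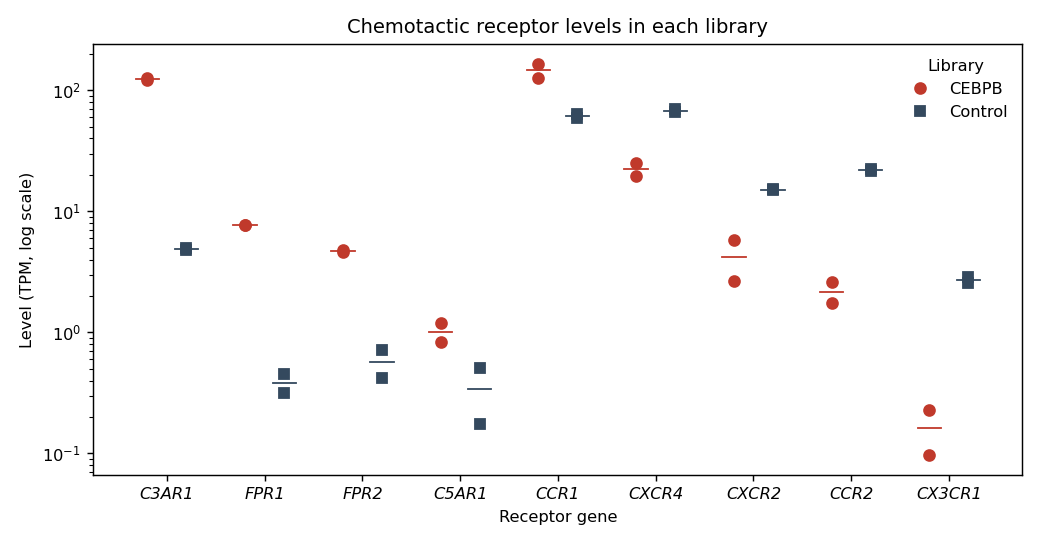
Level in TPM (log scale) of 9 receptor genes in the 2 CEBPB libraries (red circles) and the 2 Control libraries (dark squares), with a short line at each group's mean. Genes run from the largest rise to the largest fall, FPR3 is left out because it was at 0 in all 4 libraries, and the groups do not overlap for any of the 9.

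C3AR1, the receptor for the complement fragment C3a, rose the most. Its identifier is ENSG00000171860.5 (GRCh38, chromosome 12, 8058302 to 8066471, minus strand, protein coding; coordinates here and below are those of GENCODE v29). It read 123 and 127 TPM in the CEBPB libraries, against 5.02 and 4.75 TPM in Control. Both CEBPB libraries were far above both Control libraries, and the libraries of each group lay close together. On the log2 scale C3AR1 rose by 4.49 (SE 0.097, adjusted p = 3.93e-05, edgeR), and 0.840% of the features tested had a higher one. C5AR1 (ENSG00000197405.8, chromosome 19, 47290023 to 47322066, plus strand), the receptor for the stronger attractant C5a, was scarce in every library. It read 1.19 and 0.830 TPM in CEBPB and 0.175 and 0.507 TPM in Control. Both CEBPB libraries were higher, but the Control libraries differed from each other by 2.89-fold. Its log2 fold change of 1.40 (SE 0.65) did not pass (adjusted p = 0.132, edgeR), and it ranged from 0.79 without Control replicate 1 to 2.51 without Control replicate 2. On reads recovered from TPM and effective length, C5AR1 had 53 and 32 reads in CEBPB and 8 and 11 in Control, and there it passed (2.11, adjusted p = 0.00286, edgeR, where 61.2% of features passed). With a length offset added to those reads it did not (1.47, adjusted p = 0.0681, edgeR).

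FPR1 and FPR2, which bind N-formylated peptides of bacteria and mitochondria, rose to levels far under that of C3AR1. FPR1 (ENSG00000171051.10, chromosome 19, 51745172 to 51804110, minus strand) read 7.71 and 7.72 TPM in CEBPB, against 0.456 and 0.313 TPM in Control. The CEBPB libraries were nearly equal, and the Control values rested on 11 and 10 recovered reads. On the log2 scale FPR1 rose by 4.12 (SE 0.26, adjusted p = 3.26e-04, edgeR). FPR2 (ENSG00000171049.9, chromosome 19, 51752026 to 51770526, plus strand), which also binds lipoxin and annexin A1, read 4.61 and 4.75 TPM in CEBPB, against 0.417 and 0.721 TPM in Control. The Control libraries differed more from each other than the CEBPB libraries did, and all Control values were lower (log2 fold change 2.83, SE 0.35, adjusted p = 0.00213, edgeR). FPR3 (ENSG00000187474.5, chromosome 19, 51795163 to 51826189, plus strand), the third gene of the cluster, had 0 counts in each library. A count of 0 allows up to 3 counts, which is 0.137 and 0.165 CPM in CEBPB and 0.151 and 0.139 in Control, for counting error alone. In GENCODE v29 the span of FPR1 overlaps those of FPR2 and FPR3 on the opposite strand, and the strand setting of the quantification is not given in the sources used here. Of the 31-base words of their annotated transcripts, 5.03% in FPR1, 2.99% in FPR2 and 1.39% in FPR3 also occur in transcripts of other genes.

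CCR1, a receptor for CCL3, CCL5 and related chemokines, was the one chemokine receptor of the set that rose. CCR1 (ENSG00000163823.4, chromosome 3, 46201709 to 46208396, minus strand) read 166 and 127 TPM in CEBPB and 64.1 and 58.9 TPM in Control. Both CEBPB libraries were above both Control libraries, with the wider spread in CEBPB. On the log2 scale CCR1 rose by 1.07 (SE 0.12, adjusted p = 0.00154, edgeR), and 9.22% of the features tested had a higher one. The gene overlaps the span of CCR3 on the opposite strand, and CCR3 itself stayed under 1 TPM in each library.

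CCR2, the receptor for CCL2, fell to a low level. The gene (ENSG00000121807.7) runs on the plus strand of chromosome 3 from 46353734 to 46360928. CCR2 read 1.75 and 2.59 TPM in CEBPB, against 22.5 and 21.5 TPM in Control. In recovered reads that was 96 and 114 in CEBPB and 1177 and 1202 in Control. Every CEBPB value was lower, and on the log2 scale the difference was -3.54 (SE 0.21, adjusted p = 2.74e-04, edgeR), and 0.526% of the features tested had a lower one. CX3CR1 (ENSG00000168329.14, chromosome 3, 39263494 to 39281735, minus strand), the receptor for the membrane-bound chemokine fractalkine, read 0.0967 and 0.230 TPM in CEBPB and 2.56 and 2.86 TPM in Control. The CEBPB values rested on 1 and 11 recovered reads, and those of Control on 145 and 174. Its log2 difference of -4.29 (SE 0.50, adjusted p = 0.00184, edgeR) therefore has a wide error, and it ranged from -5.02 without CEBPB replicate 2 to -3.72 without CEBPB replicate 1.

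CXCR4, the receptor for CXCL12, and CXCR2, the receptor for CXCL8 and the related neutrophil chemokines, also fell. CXCR4 (ENSG00000121966.8, chromosome 2, 136114349 to 136118165, minus strand) read 25.1 and 19.8 TPM in CEBPB and 70.1 and 65.8 TPM in Control. The groups were well apart (a log2 difference of -1.78, SE 0.11, adjusted p = 2.89e-04, edgeR). CXCR2 is ENSG00000180871.8 and runs on the plus strand of chromosome 2 from 218125289 to 218137253. It read 2.65 and 5.80 TPM in CEBPB and 15.0 and 15.3 TPM in Control. The CEBPB libraries differed by 2.19-fold in TPM but held 112 and 99 recovered reads, and the deposited effective length of the gene was 2589 bases in CEBPB replicate 1 and 1197 bases in CEBPB replicate 2. For CXCR2 the log2 difference was -2.03 (SE 0.36, adjusted p = 0.00719, edgeR), from -2.73 without CEBPB replicate 2 to -1.52 without CEBPB replicate 1. Of the 31-base words of CXCR2 transcripts, 15.5% are shared with transcripts of other genes, and 7.25% occur in the pseudogene CXCR2P1.

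**Figure D2:**
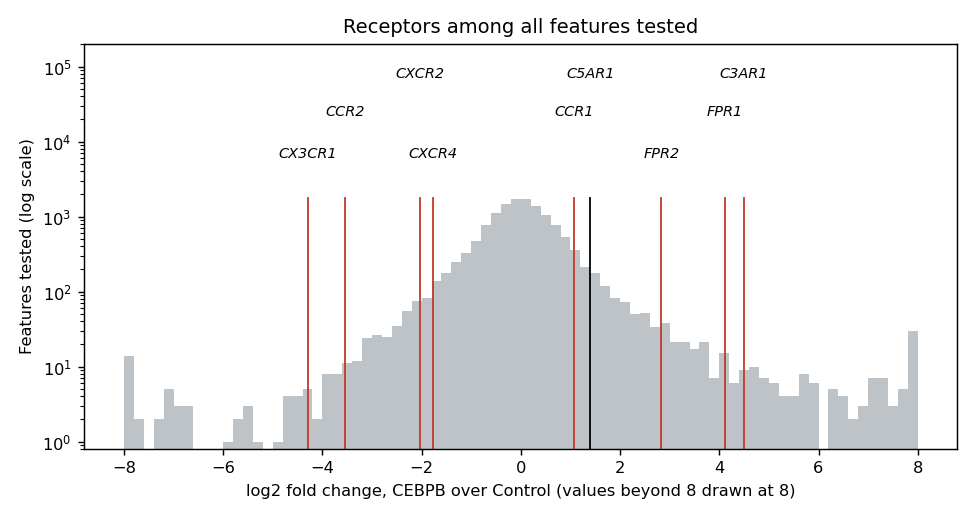
Number of features (log scale) by log2 fold change, CEBPB over Control, for the 13698 features tested. Vertical lines mark the receptors, red where the adjusted p was under 0.05 and black for C5AR1, and C3AR1, FPR1, CX3CR1 and CCR2 lie in the tails.

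The order of the receptors by level differed between the groups. In CEBPB, CCR1 came first at 147 ± 27.5 TPM and C3AR1 second at 125 ± 3.11 TPM, the lower CCR1 library lying just above the higher C3AR1 library. CXCR4 followed at 22.4 ± 3.78 TPM, then FPR1 at 7.71 ± 0.0060 TPM, and then FPR2 and CXCR2, whose library values overlapped. In Control, CXCR4 came first at 68.0 ± 3.06 TPM and CCR1 second at 61.5 ± 3.70 TPM, followed by CCR2 at 22.04 ± 0.723 TPM and CXCR2 at 15.1 ± 0.256 TPM, while C3AR1 came after these at 4.89 ± 0.193 TPM. At the foot of the Control order the values of FPR2 and FPR1 overlapped, as did those of FPR1 and C5AR1. The TPM of the 10 genes summed to 332 and 296 in CEBPB and to 180 and 171 in Control. The C3a, C5a and formyl peptide receptors made up 41.0% and 47.4% of that sum in CEBPB and 3.37% and 3.69% in Control. Most of this was C3AR1, which alone held 37.0% and 42.9% in CEBPB and 2.79% and 2.78% in Control. CXCR4, CCR2, CXCR2 and CX3CR1, grouped here as the receptors that fell, made up 8.91% and 9.58% in CEBPB and 61.1% and 61.8% in Control. CCR1 held 50.1% and 43.0% in CEBPB and 35.5% and 34.5% in Control. These are shares of RNA and say nothing of receptor protein at the surface.

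The 250 bases before the annotated start were read for 9 of the 10 receptors from RefSeq (GRCh38.p14), 14 windows in all, since several have more than 1 start. RefSeq starts can differ from those of GENCODE v29, and the windows of FPR1 and CCR2, among others, lie inside the gene spans given above. They were searched on both strands for TTGCNNAA, a core of the C/EBP motif, for TGANTCA, the AP-1 motif, and for AGAGGAAG, a form of the PU.1 motif. The matches found do not overlap each other. The 4 windows below are those of the largest rises, C3AR1 and FPR1, and of CCR1 and CCR2, neighbours on chromosome 3 that moved in opposite directions. Each is written 5′ to 3′ on the gene's strand, and capitals mark motif matches.
C3AR1, chr12:8066360-8066609, minus strand: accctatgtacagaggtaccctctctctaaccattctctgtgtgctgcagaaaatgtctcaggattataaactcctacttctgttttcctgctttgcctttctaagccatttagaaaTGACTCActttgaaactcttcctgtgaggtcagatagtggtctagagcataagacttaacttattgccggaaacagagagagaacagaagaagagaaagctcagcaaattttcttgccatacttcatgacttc
FPR1, chr19:51751879-51752128, minus strand: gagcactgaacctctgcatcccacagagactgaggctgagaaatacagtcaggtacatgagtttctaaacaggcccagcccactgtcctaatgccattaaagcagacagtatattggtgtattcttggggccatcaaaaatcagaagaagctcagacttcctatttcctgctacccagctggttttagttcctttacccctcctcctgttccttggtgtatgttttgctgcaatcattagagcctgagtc
CCR1, chr3:46208314-46208563, minus strand: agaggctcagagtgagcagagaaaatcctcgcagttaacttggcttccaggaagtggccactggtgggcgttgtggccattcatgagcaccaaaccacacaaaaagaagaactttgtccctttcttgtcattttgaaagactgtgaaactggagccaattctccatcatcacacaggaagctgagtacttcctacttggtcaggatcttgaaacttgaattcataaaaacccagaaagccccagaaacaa
CCR2, chr3:46353861-46354110, plus strand: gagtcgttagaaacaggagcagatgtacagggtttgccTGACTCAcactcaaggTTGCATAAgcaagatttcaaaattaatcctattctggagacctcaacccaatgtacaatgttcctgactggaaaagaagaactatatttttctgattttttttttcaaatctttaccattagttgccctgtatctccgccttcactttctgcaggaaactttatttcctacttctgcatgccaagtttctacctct

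The C/EBP letters occurred in 1 of the 14 windows, that of CCR2, as TTGCATAA from base -196 to -189 before the start, and CCR2 was among the receptors that fell. They occur in 9.05% of the 35116 windows of the same length before all annotated starts. The AP-1 letters occurred as TGACTCA in CCR2 from -212 to -206 and in C3AR1 from -133 to -127, and in 6.57% of all windows. The PU.1 letters occurred in none of the 14 windows and in 3.60% of all. A match describes letters and shows no binding, and distal sites lie outside these windows.

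Of 32 other chemoattractant receptors 13 had enough counts to test, of which 2 rose, 4 fell and 7 did not pass, with a median log2 fold change of -0.56. The 6 past the threshold are 46.2% of the 13, a share near the 48.5% of all features. The 19 others did not exceed 0.396 TPM in any library, among them CXCR1, CCR7 and C5AR2. GPR183, the receptor for oxysterols, fell to 2.04 and 2.30 TPM in CEBPB, against 8.26 and 6.10 TPM in Control (log2 fold change -1.90, SE 0.24, adjusted p = 0.00222, edgeR). PTAFR, the receptor for platelet-activating factor, fell (-1.62, SE 0.26, adjusted p = 0.00518, edgeR), at 1.31 and 1.39 TPM in CEBPB and 3.28 and 4.09 TPM in Control, but not without Control replicate 2 (-1.45, adjusted p = 0.0506, edgeR). CCRL2, an atypical receptor that presents chemerin, rose to 5.09 and 6.45 TPM in CEBPB, against 2.08 and 1.90 TPM in Control (1.37, SE 0.24, adjusted p = 0.00664, edgeR). On recovered reads 4 rose and 5 fell, where 61.2% of all features passed.

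**Figure D3:**
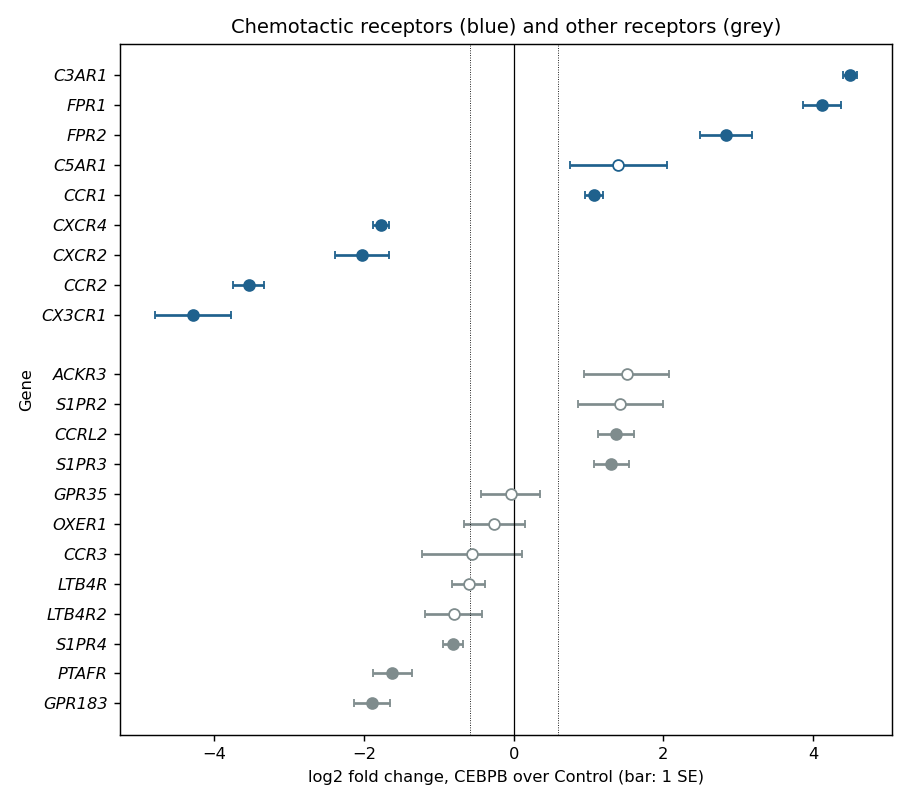
Log2 fold change, CEBPB over Control, with 1 SE for the 9 tested receptors (blue) and 12 other chemoattractant receptors (grey). Filled points had an adjusted p under 0.05, dotted lines mark 1.5-fold, and the blue points reach 4.49 and -4.29 where the grey ones stay between -1.90 and 1.51.

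The genes for the ligands moved in both directions. Of 27 ligand genes 13 had enough counts to test, of which 8 rose and 3 fell, against 23.7% of all features higher and 24.7% lower. The median log2 fold change of the 13 was 2.18, and that of all features 0.00092. All 5 tested CXC chemokines that bind CXCR2 rose while CXCR2 fell. CXCL1 stood at 59.3 and 56.0 TPM in CEBPB, against 2.14 and 1.85 TPM in Control (log2 fold change 4.66, SE 0.11, adjusted p = 4.35e-05, edgeR). CXCL3 stood at 10.03 and 10.3 TPM in CEBPB, against 0.315 and 0.377 TPM in Control (4.72, SE 0.23, adjusted p = 1.90e-04, edgeR). The other 3 were CXCL6, CXCL2 and CXCL8. ANXA1, whose protein annexin A1 acts through FPR2 and FPR1, rose with both of them. It was at 1363 and 1146 TPM in CEBPB, against 11.7 and 12.6 TPM in Control (6.51, SE 0.11, adjusted p = 1.72e-05, edgeR). C3, the source of C3a, rose with C3AR1 (1.37, adjusted p = 3.47e-04, edgeR). C5 was at 1.15 and 0.744 TPM in CEBPB and 0.753 and 1.03 TPM in Control and did not pass (adjusted p = 0.909, edgeR).

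Among chemokines for CCR1 and CCR2, CCL5 fell to 18.7 and 22.6 TPM in CEBPB, against 126 and 123 TPM in Control (-2.77, SE 0.12, adjusted p = 1.64e-04, edgeR), while its receptor CCR1 rose. CCL4, a chemokine of macrophages, rose (2.81, adjusted p = 0.0238, edgeR). CCL2 fell with its receptor CCR2, to 5.05 and 4.08 TPM in CEBPB, against 30.4 and 19.4 TPM in Control (-2.62, SE 0.26, adjusted p = 0.00106, edgeR). MIF, a ligand of CXCR4 and CXCR2, fell (-1.72, adjusted p = 1.96e-04, edgeR). CXCL12 and CX3CL1, the chemokines of CXCR4 and CX3CR1, were among 9 ligand genes at 0 TPM in all 4 libraries.

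**Figure D4:**
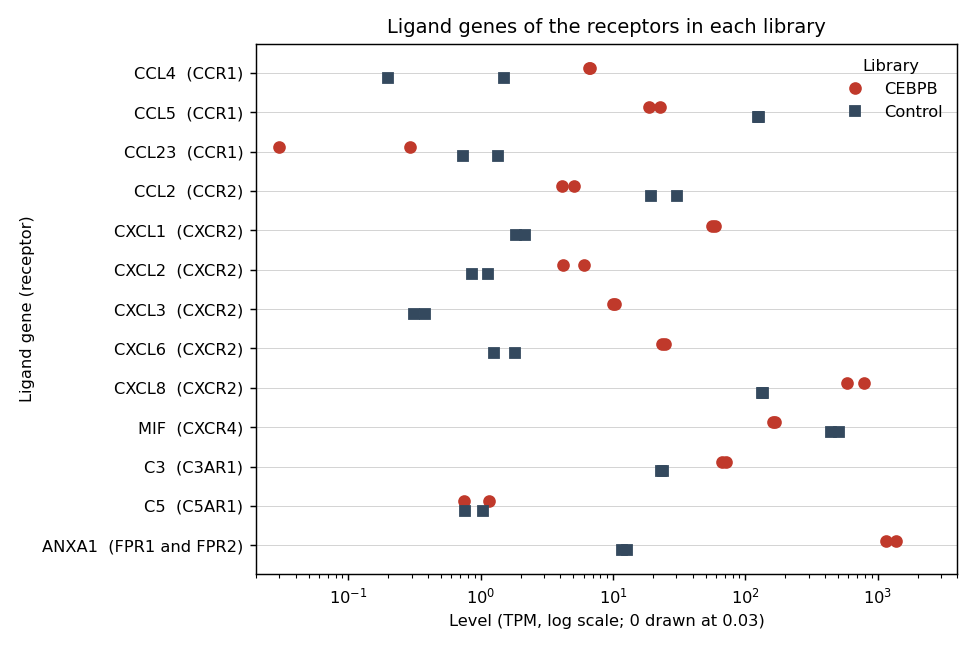
Level in TPM (log scale) of the 13 tested ligand genes in the 2 CEBPB libraries (red circles) and the 2 Control libraries (dark squares), with the receptor in brackets and 0 drawn at 0.03. The 5 CXC chemokines of CXCR2 lie to the right in CEBPB, whereas CCL5, CCL2 and MIF lie to the left.

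Of 32 genes for signalling and desensitisation behind these receptors, 29 had enough counts to test, of which 9 rose and 14 fell, with a median log2 fold change of -0.31. That compares with 48.5% of all features past the threshold. Against a change of 1.5-fold, 1 rose and 6 fell, where 17.3% of all features passed. ARRB1, an arrestin that ends receptor signalling, fell to 9.16 and 9.82 TPM in CEBPB, against 29.4 and 30.7 TPM in Control (-1.84, SE 0.10, adjusted p = 2.40e-04, edgeR). PLCB2, the phospholipase that starts the calcium signal in leukocytes, fell to 16.3 and 18.9 TPM in CEBPB, against 56.3 and 52.2 TPM in Control (-1.80, SE 0.12, adjusted p = 3.51e-04, edgeR). GRK2, a kinase that marks active receptors for arrestins, fell to 80.7 and 92.2 TPM in CEBPB, against 199 and 212 TPM in Control (-1.43, SE 0.11, adjusted p = 5.00e-04, edgeR). GNG5, a G-protein gamma subunit, was at 268 and 250 TPM in CEBPB and 158 and 156 TPM in Control (0.54, SE 0.059, adjusted p = 0.00144, edgeR). It did not pass the test against 1.5-fold. Without Control replicate 1 or without Control replicate 2, 5 of these genes rose.

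Protein-coding genes around the receptors moved in both directions, and most did not pass the test. Of 50 neighbours whose start lies within 200000 bases of a receptor's start, 36 had enough counts to test, of which 7 rose and 7 fell, with a median log2 fold change of -0.0030. Starts and distances here are those of GENCODE v29, not the RefSeq starts of the windows above. With library totals as the scale 11 of the 36 rose, where 4424 of all 13698 features tested were higher. In the edgeR fit 38.9% were past the threshold, against 48.5% of all features tested. Around C3AR1 3 of 6 tested neighbours rose, where 23.7% of all features tested were higher. The one named by the smallest adjusted p was SLC2A3, a glucose transporter gene with its start 130 kb downstream of that of C3AR1 (1.74, SE 0.11, adjusted p = 3.29e-04, edgeR). CCRL2, 53.4 kb downstream of CCR2, rose. BBC3, 57.3 kb upstream of C5AR1, encodes the pro-apoptotic PUMA and fell (-1.48, SE 0.10, adjusted p = 4.18e-04, edgeR). RPSA, a ribosomal protein gene 125 kb upstream of CX3CR1, fell (-0.85), and TMBIM1, 167 kb downstream of CXCR2, rose (0.57), although 4 other neighbours of CXCR2 fell. Around FPR1, FPR2 and FPR3, the smallest adjusted p was that of ZNF613, a zinc finger gene that did not pass (0.87, adjusted p = 0.0509, edgeR).

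**Figure D5:**
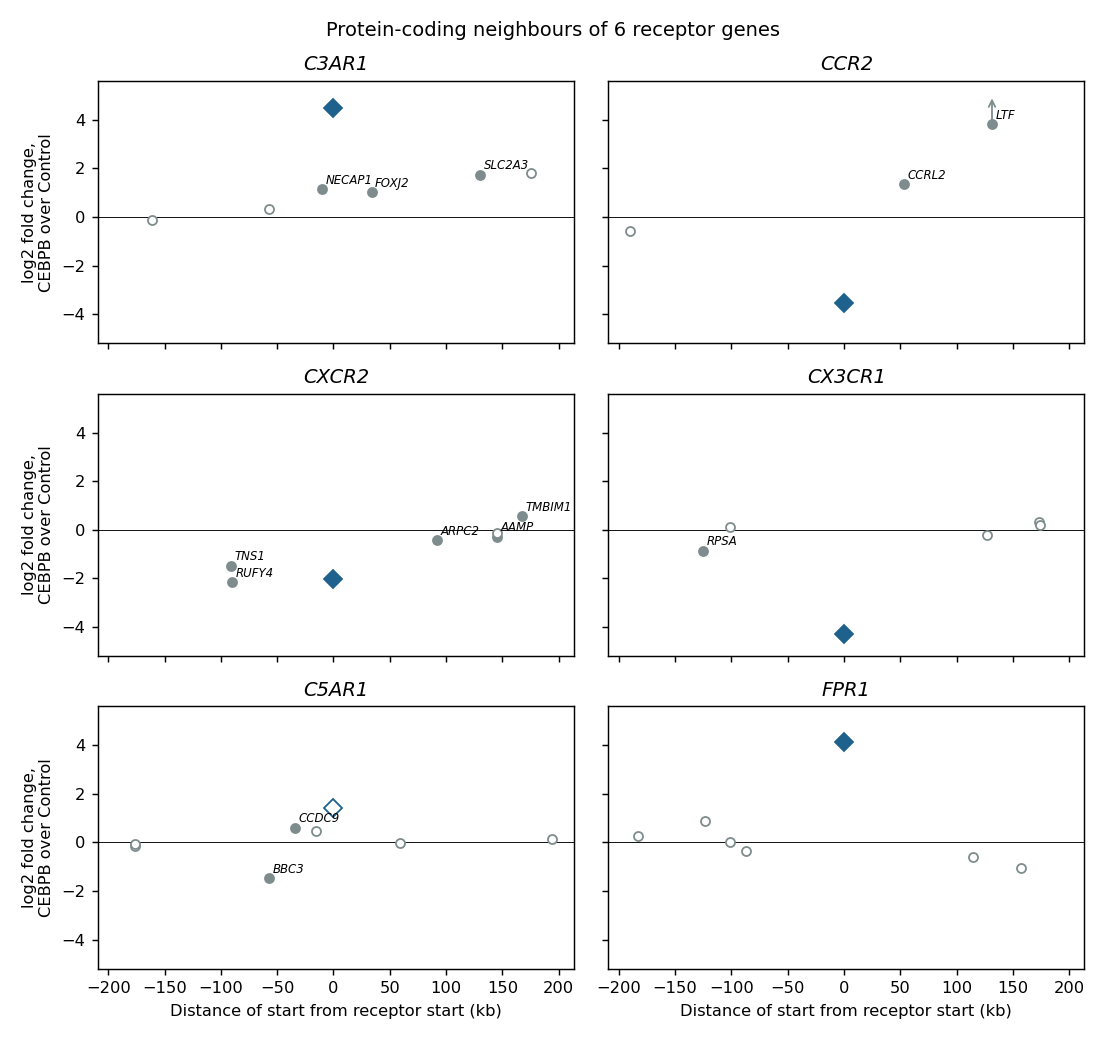
Log2 fold change, CEBPB over Control, of tested protein-coding genes around 6 receptors (grey circles, filled and named where the adjusted p was under 0.05) by the distance of their start from the receptor's start, with the receptor as a blue diamond at 0 (open for C5AR1). LTF, with 0 counts in Control, is drawn at its lower bound of 3.83 with an arrow. Of the 6 tested neighbours of C3AR1 3 rose, against 7 of the 36 tested around all receptors and 23.7% of all features tested.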

How the data were processed

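Per the submitters' processing notes, reads were trimmed with Trimmomatic 0.39 and quantified with kallisto 0.46.2 on GRCh38. The annotation release, strand setting and gene-level step are not given in the sources used here. The deposited files hold TPM, expected counts (estimated counts) and, as another unit, the effective length of each gene in bases, as deposited by the authors. Each deposited count equals the TPM times 1 constant per library, so it carries no transcript length. Reads were also recovered by multiplying TPM by effective length and scaling each library to its total. Among those from 0.2 to 500, the share within 0.01 of a whole number was 58.7% to 60.8%.

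The quasi-likelihood test of edgeR 4.0.16 (R 4.3.3) was run on rounded counts after filterByExpr by group and TMM scaling. The threshold was a Benjamini-Hochberg adjusted p of 0.05 over 13698 features. SE is the log2 fold change divided by the root of F. Symbols matched 35690 of 41084 identifiers. On simulated data with 13383 features and this design, 40% of 80 genes changed 1.5-fold, 70% of 80 changed 2-fold and 85% of 40 changed 4-fold were recovered, with 4 false calls. The simulation changed these genes alone and drew each feature with the spread typical of its level, whereas 48.5% of features passed in the data. Its figures therefore do not measure the power or error of the calls reported here. The receptors, lists and tests were chosen with earlier results of these data known. Named were all receptors, up to 4 members of each other list with the smallest adjusted p (1 of each direction where both passed), and for each receptor the neighbour with the smallest; others were named after their values were seen. Of the genes chosen this way, 2 are left out of the text and figures. Other lists were the 27 ligands, 32 other receptors, 32 signalling genes, 50 neighbours and 2 marker lists. Alternatives were DESeq2 1.42.0, its size factors, upper-quartile scaling, library totals, no filter, 1 CPM in 2 libraries, limma 3.58.1 (voom, and log2 of TPM plus 1 or 0.1), a replicate block, a test against 1.5-fold, recovered reads with and without a length offset, and each library left out. Counting limits cover counting error only.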

Additional observations from a re-analysis of the deposited data

How the results depend on the processing

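Each of the 8 receptor calls kept its direction and side of the threshold under all 17 alternatives. Of the 152 receptor values under alternatives, 151 did so, and the exception was C5AR1 on recovered reads (2.11, adjusted p = 0.00286, edgeR). C5AR1 could not be tested with a minimum of 1 CPM in 2 libraries. On leaving out each library, a fit that gives the remaining single library the spread of the opposite group, the log2 fold change ran from 4.43 to 4.56 in C3AR1, 3.89 to 4.37 in FPR1, 2.47 to 3.34 in FPR2, 0.92 to 1.22 in CCR1, 0.79 to 2.51 in C5AR1, -1.91 to -1.65 in CXCR4, -2.73 to -1.52 in CXCR2, -3.88 to -3.22 in CCR2 and -5.02 to -3.72 in CX3CR1. Scaling by library totals moved the median of all features to 0.18 and CXCR2 to -1.86. Over all 17 alternatives the sizes of some receptors ranged more widely. The log2 fold change ran from 2.66 to 4.37 in FPR1, 1.86 to 3.34 in FPR2 and -5.02 to -1.67 in CX3CR1. It ran from 4.42 to 4.67 in C3AR1 and from -3.88 to -2.87 in CCR2.

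Against 1.5-fold, 1186 features were higher and 1188 lower, 4 neighbours fell, and 1 signalling gene rose and 6 fell, since that test asks for a larger change. With library totals 11 of 36 neighbours rose, where 4424 of 13698 features were higher. On recovered reads 11 of 35 neighbours and 4 other receptors rose, where 30.5% of all features were higher. The cause was not tested. Leaving out 1 library, between 5 and 8 signalling genes rose and between 4 and 7 neighbours fell, 4 of them without Control replicate 2. Same-numbered libraries did not deviate together across the features tested (r = -0.0131 over 13698 features). That correlation cannot show whether same-numbered libraries shared a culture or a preparation, so pairing remains unknown. With a replicate block 3174 features were higher and 3308 lower, and 4 receptors rose and 4 fell. Fewer than 12 recovered reads in a library limit CX3CR1 in CEBPB and FPR1 and C5AR1 in Control.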

Other observations

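The effective length was deposited for each gene in each library. It was close to the same in all 4 libraries for CCR1 (2681 to 2757 bases) and CXCR4 (1655 to 1709 bases). It was 3358 and 3086 bases in CEBPB and 3054 and 3035 bases in Control for CCR2. For C5AR1 it was 2735 and 2701 bases in CEBPB and 2669 and 1180 bases in Control, and for CX3CR1 it was 633 and 3351 bases in CEBPB and 3311 and 3307 bases in Control. The library that stands apart held 11 recovered reads for C5AR1 (Control replicate 2) and 1 for CX3CR1 (CEBPB replicate 1). Low reads and a length apart did not always go together. C5AR1 had 8 reads at 2669 bases in Control replicate 1, and CX3CR1 had 11 at 3351 bases in CEBPB replicate 2. CXCR2 had 112 reads at 2589 bases and 99 at 1197 bases in the CEBPB libraries. The cause of these lengths was not tested.

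CCL3, a ligand of CCR1, read 8.34 TPM in CEBPB replicate 1, 0.0483 TPM in CEBPB replicate 2 and 0.0368 and 0.0914 TPM in Control, and was too low in most libraries to be tested. LTF, which encodes the neutrophil granule protein lactoferrin and lies 132 kb downstream of CCR2 on the other strand, read 0.740 and 1.39 TPM in CEBPB and had 0 counts in both Control libraries. Against a floor of 3 counts over the Control group it was at least 14.3-fold higher in CEBPB (adjusted p = 0.00915, edgeR). Of 9 tested myeloid identity markers 3 rose, LYZ (2.34), CD14 (2.08) and ITGAM (1.80), and 5 fell, among them FCGR1A (-2.38), SPI1 (-1.16) and CD68 (-1.26). Among all features tested 23.7% were higher and 24.7% lower. Of the markers of other cells, PECAM1 (-1.41), NCAM1 (-1.20) and GP9 (-3.06) fell. Without Control replicate 2, NCAM1 did not pass (-1.15). GP9 passed in no fit without 1 library in which it was tested. These were the fits without CEBPB replicate 1 (-3.77), CEBPB replicate 2 (-2.64) or Control replicate 1 (-3.48). Neither NCAM1 nor GP9 passed the test against 1.5-fold. GNLY read 2.77 and 4.06 TPM in CEBPB and 0.0781 and 0 TPM in Control.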
